A study of Rattus norvegicus with 12 samples.

Results

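The expression of 10 genes used as markers of glial cells and of their lineages was followed through the 12 libraries: Gfap, S100b, Olig2, Nkx2-2, Fgfr3, Slc1a3, Mog, Aqp1, Sox9 and Sox10. They were taken by symbol, 1 row each, and make up 10 of the 18344 rows of the expression table. The genes were picked with their levels in these libraries known, because the labels conflict: titles and source give H9C2, a line derived from embryonic rat heart and used as a cardiac myoblast model, while the cell line field gives rat astrocytes. Their levels and differences are therefore described without a test.

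All 12 libraries came from rat cells that had gone through OGD/R (deprivation of oxygen and glucose, then reperfusion), a culture model of ischaemia, so no library without OGD/R enters any comparison. They formed 4 groups of 3, named after what was added to OGD/R: CIRBP with its control NC, and si-CIRBP with its control si-NC. Cirbp encodes the cold-inducible RNA-binding protein. How CIRBP was given, what NC and si-NC contained, and the times of deprivation and reperfusion are not stated in any source used here. Columns of CIRBP and NC carry a prefix, ad, that the other 6 lack, so a difference between these pairs of groups can hold more than the treatment. The titles number the 3 libraries of each group as biological replicates, and nothing says whether they came from separate cultures, so the p-values measure the spread between these libraries.

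Glial cells of the brain and of peripheral nerves are told apart by a few proteins. Gfap, an intermediate filament, and Slc1a3, a glutamate transporter, mark astrocytes. Olig2, Nkx2-2 and Sox10 are transcription factors of the oligodendrocyte lineage, and Sox10 also serves Schwann cells and the neural crest from which they arise. Mog is a late protein of central myelin. None of these genes is strictly limited to glia: Sox9 directs cartilage formation, Aqp1 is found in red cells and blood vessels, and S100b is made by several other cell types.

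Of the 10 genes, 7 (all but Mog, Sox9 and Sox10) matched a promoter in the RefSeq table for the rat build GRCr8 (250 bases before to 50 after the gene's start). The promoters of 3 genes with different patterns are shown: Gfap, the classical astrocyte marker, Aqp1, high in every library, and Slc1a3, near 0 in 6 libraries. They lie on the reverse strand at chr10:88361612-88361911, on the forward strand at chr4:85812534-85812833, and on the reverse strand at chr2:59557759-59558058. Capitals mark the short core bound by Sox proteins, ACAAAG or ACAATG on either strand.
Gfap: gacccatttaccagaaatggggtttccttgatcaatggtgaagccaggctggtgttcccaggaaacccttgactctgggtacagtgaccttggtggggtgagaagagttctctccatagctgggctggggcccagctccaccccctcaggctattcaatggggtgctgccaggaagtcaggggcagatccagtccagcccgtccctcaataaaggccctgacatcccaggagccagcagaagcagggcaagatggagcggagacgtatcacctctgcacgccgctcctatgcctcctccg
Aqp1: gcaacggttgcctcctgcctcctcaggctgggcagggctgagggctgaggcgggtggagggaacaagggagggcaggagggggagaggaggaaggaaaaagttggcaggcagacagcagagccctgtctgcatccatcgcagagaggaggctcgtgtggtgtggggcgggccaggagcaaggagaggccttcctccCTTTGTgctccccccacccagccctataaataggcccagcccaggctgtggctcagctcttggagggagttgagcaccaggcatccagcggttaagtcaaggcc
Slc1a3: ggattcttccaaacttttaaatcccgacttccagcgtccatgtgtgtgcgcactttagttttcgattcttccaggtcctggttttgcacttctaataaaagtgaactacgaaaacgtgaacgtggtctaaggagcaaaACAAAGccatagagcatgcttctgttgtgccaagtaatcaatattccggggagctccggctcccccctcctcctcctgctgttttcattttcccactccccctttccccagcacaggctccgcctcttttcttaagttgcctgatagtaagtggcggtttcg
No match lies in the Gfap window. In the Aqp1 window the match is CTTTGT, starting 54 bases before the gene's start, and in the Slc1a3 window it is ACAAAG, 112 bases before it. A match was found in 28.6% of the 27457 promoters of the table, so its presence is a description and names no site.

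Summed expression was 457775 to 502889 FPKM (fragments scaled to transcript length and library size) per library. Absolute depth is unknown. Relative to NC library 1, the depth read from the spacing of low values was 0.842 to 1.03. Cirbp stood at 34.3, 36.5 and 36.5 FPKM in CIRBP, against 19, 19.8 and 20.1 FPKM in NC. Libraries labelled si-CIRBP held 26.5, 28.6 and 27.7 FPKM, against 29, 24.2 and 27 FPKM in si-NC, so those groups overlapped and the Cirbp mRNA was not lower in the libraries labelled si-CIRBP. Of the si libraries, si-NC library 1 and si-CIRBP library 1 stood apart from the other 2 of their group, and for the 10 genes the si values without both are given as well. In si-CIRBP library 1 the muscle factor Myog stood at 0.0402 times the mean of the other 2, while Myod1, another muscle factor, stood at 1.03 times. Myog was also low in si-NC library 1, at 0.0613 times the mean of the other 2 there.

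Sox10, S100b, Aqp1 and Nkx2-2 had a mean of at least 10 FPKM in every group. By mean level over all libraries, Sox10 lay above 97.8% of all rows, S100b above 97.6%, Aqp1 above 96.5% and Nkx2-2 above 71.9%. Gfap, Olig2 and Fgfr3 were present in all 12 libraries at lower and more variable levels. Sox9 was low. Mog and Slc1a3 were at or near 0 in the CIRBP and NC libraries and between 0.343 and 4.82 FPKM in the si libraries. The CIRBP and NC libraries held over 150 FPKM of Sox10 and under 0.03 FPKM of Slc1a3. All 10 genes passed the filter of at least 1 FPKM in 3 or more libraries, Mog and Slc1a3 through 5 of the si libraries alone.

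**Figure D1:**
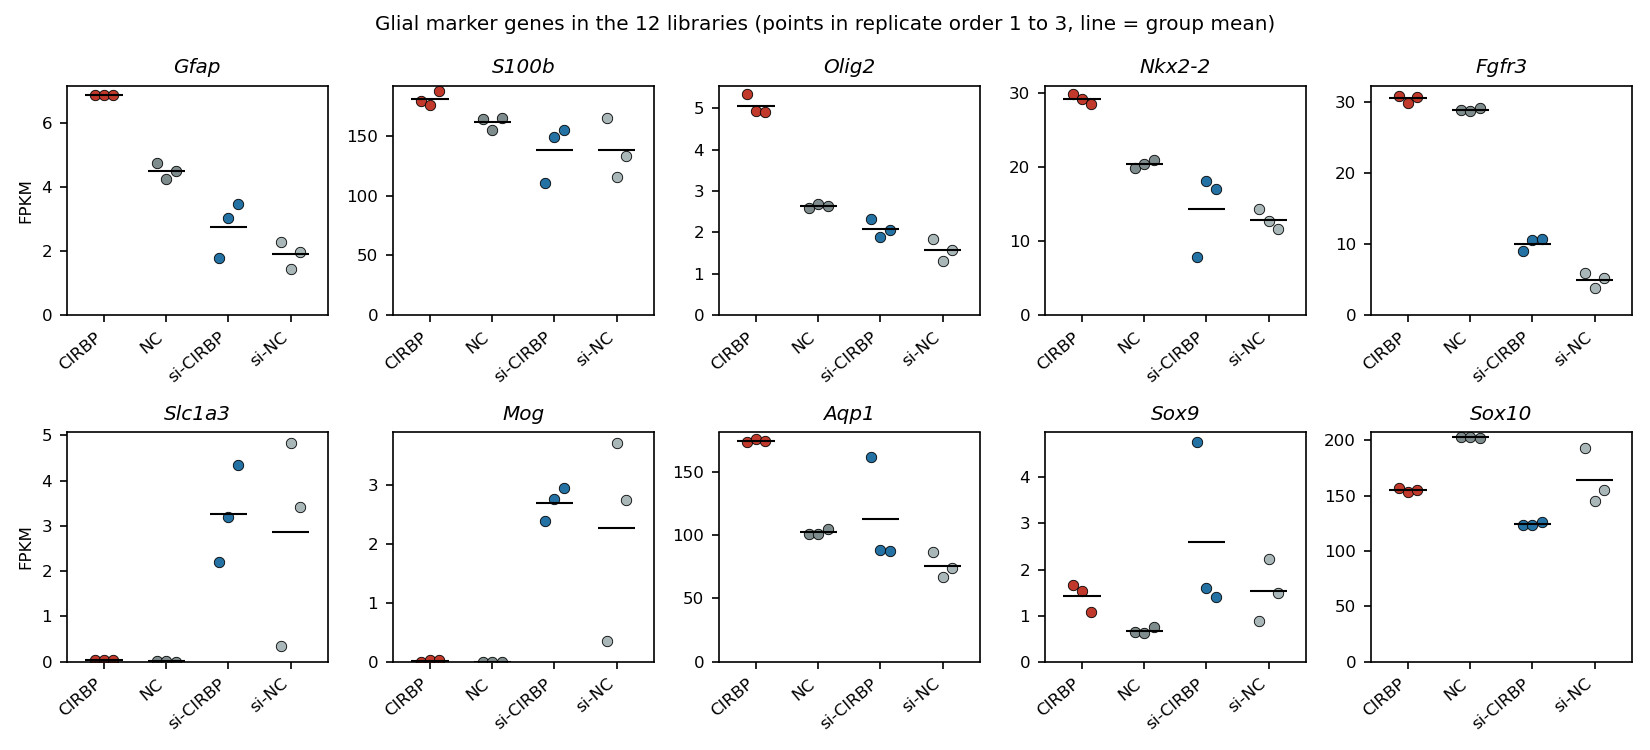
Expression of the 10 glial marker genes in FPKM (vertical axes, each from 0) in the 4 groups (horizontal axes); points are single libraries and lines are group means of 3. Gfap, Olig2, Nkx2-2 and Aqp1 are highest in CIRBP, Fgfr3 is near 30 FPKM in CIRBP and NC but at most 10.7 FPKM in the si libraries, and Mog and Slc1a3 appear in the si libraries alone at this scale.

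Among the transcription factors, Sox10 (ENSRNOG00000011305), which drives oligodendrocyte and Schwann cell genes, was the highest of the 10 genes by mean level, at 162 FPKM over all libraries. It read 157, 153 and 155 FPKM in CIRBP, against 203, 203 and 202 FPKM in NC. The libraries labelled si-CIRBP held 123, 123 and 126 FPKM, against 193, 145 and 155 FPKM in si-NC. In both pairs the treated libraries all lay below their controls. Its log2 fold change was -0.39 in each (SE 0.0835). With all libraries brought to one median it was -0.24 for CIRBP and -0.27 for si-CIRBP. Between the control groups the log2 fold change, si-NC against NC, was -0.31, with no overlap.

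Sox9 (ENSRNOG00000002607), a relative of Sox10 used by astrocytes, progenitors and cartilage cells, stood at 1.67, 1.53 and 1.07 FPKM in CIRBP, against 0.641, 0.63 and 0.749 FPKM in NC. It was 4.77, 1.6 and 1.41 FPKM in si-CIRBP, against 0.887, 2.23 and 1.5 FPKM in si-NC. A single library, si-CIRBP library 1, held 3.16 times the mean of the other 2 of its group, and the si groups overlapped. The log2 fold change in the si libraries was 0.42 (SE 0.302) and became 0.02 without that library and -0.18 without it and si-NC library 1. At these levels the log2(FPKM + 1) scale understates fold changes.

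Olig2 (ENSRNOG00000028658), which specifies oligodendrocytes and motor neurons, read 5.34, 4.94 and 4.91 FPKM in CIRBP, against 2.59, 2.68 and 2.65 FPKM in NC. The groups did not overlap, and the log2 fold change was 0.74 (SE 0.0929). In si-CIRBP it stood at 2.33, 1.9 and 2.05 FPKM, against 1.84, 1.32 and 1.58 FPKM in si-NC, again without overlap, with a log2 fold change of 0.26. Nkx2-2 (ENSRNOG00000012728), which acts beside Olig2 in the oligodendrocyte lineage, was 29.9, 29.2 and 28.6 FPKM in CIRBP, against 19.9, 20.4 and 21 FPKM in NC. Its values in si-CIRBP were 7.83, 18.1 and 17 FPKM, against 14.4, 12.7 and 11.6 FPKM in si-NC. Here si-CIRBP library 1 lay below all si-NC libraries and the other 2 lay above them: the log2 fold change of 0.07 (SE 0.23) became 0.42 without that library and 0.5 without both first si libraries.

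Of the structural and calcium-binding genes, Gfap (ENSRNOG00000002919) read 6.89, 6.87 and 6.89 FPKM in CIRBP, against 4.74, 4.24 and 4.52 FPKM in NC. The libraries labelled si-CIRBP held 1.77, 3.04 and 3.48 FPKM, against 2.28, 1.44 and 1.97 FPKM in si-NC. CIRBP and NC did not overlap, and the si groups did, through si-CIRBP library 1. The log2 fold changes were 0.52 (SE 0.164) for CIRBP over NC and 0.36 for si-CIRBP over si-NC, which was 0.57 without si-CIRBP library 1. By mean level Gfap lay above 43.9% of all rows.

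S100b (ENSRNOG00000001295), a calcium-binding protein of astrocytes, Schwann cells and others, was the most even of the 10 apart from Sox10, its highest library 1.7 times its lowest. It read 179, 176 and 188 FPKM in CIRBP, against 164, 155 and 165 FPKM in NC, close but without overlap. The si groups overlapped, at 111, 149 and 155 FPKM in si-CIRBP and 165, 116 and 133 FPKM in si-NC. Log2 fold changes were 0.17 (SE 0.138) and 0.01. Without both first si libraries the second became 0.3, and the remaining si libraries did not overlap.

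Fgfr3 (ENSRNOG00000016818), a fibroblast growth factor receptor of astrocytes and their progenitors and also of cartilage, separated the arms most among those of the 10 genes expressed in all libraries. It stood at 30.9, 29.9 and 30.7 FPKM in CIRBP, against 28.9, 28.8 and 29.1 FPKM in NC. In si-CIRBP it was 8.97, 10.5 and 10.7 FPKM, against 5.98, 3.84 and 5.16 FPKM in si-NC. The log2 fold change was 0.07 (SE 0.113) for CIRBP over NC, 0.9 for si-CIRBP over si-NC and -2.34 for si-NC over NC. No groups overlapped in these comparisons. The first difference is smaller than its SE, which pools the spread of all 12 libraries. Within groups the SD was 0.526 FPKM in CIRBP and 0.173 FPKM in NC, against 0.949 FPKM in si-CIRBP and 1.08 FPKM in si-NC.

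The channel Aqp1 (ENSRNOG00000011648), which lets water through membranes, read 174, 176 and 175 FPKM in CIRBP, against 101, 101 and 105 FPKM in NC. In si-CIRBP it was 162, 88 and 87.7 FPKM, against 86.7, 66.7 and 74.1 FPKM in si-NC. The log2 fold changes were 0.77 (SE 0.195) and 0.51. The second came down to 0.22 without si-CIRBP library 1, in which Aqp1 stood at 1.84 times the mean of the other 2, although all 3 si-CIRBP values lay above all 3 of si-NC.

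Slc1a3 (ENSRNOG00000016163), the glutamate transporter GLAST of astrocytes and radial glia, read 0.0254, 0.027 and 0.0293 FPKM in CIRBP, against 0.0175 and 0.02 FPKM and a value listed at 0 in NC. In si-CIRBP it was 2.21, 3.19 and 4.35 FPKM, against 0.354, 4.82 and 3.42 FPKM in si-NC. Mog (ENSRNOG00000000775), a protein of the outer myelin surface, was listed at 0 in CIRBP library 1 and at 0.0227 and 0.0246 FPKM in the other 2, and at 0 in all 3 NC libraries. Its values were 2.39, 2.75 and 2.95 FPKM in si-CIRBP, against 0.343, 3.7 and 2.74 FPKM in si-NC. No fold is given for either gene against NC or CIRBP. Within the si libraries the log2 fold change was 0.35 (SE 0.427) for Slc1a3 and 0.36 (SE 0.355) for Mog, and without si-NC library 1 these became -0.29 and -0.19.

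The low values of Slc1a3 and Mog in si-NC library 1 were shared by many other genes. In that library Mog stood at 0.107 and Slc1a3 at 0.0858 times the mean of si-NC libraries 2 and 3. Muscle and mesenchymal genes had ratios in the same range: the myogenic factor Myod1 (0.0946), the smooth muscle actin Acta2 (0.0881), the collagen Col1a1 (0.0804) and the surface protein Thy1 (0.0733). A set of 230 genes, 1.61% of those tested, lay under 0.2 FPKM in all 6 CIRBP and NC libraries and at 1 FPKM or more in the si libraries other than si-NC library 1. Its median ratio in that library was 0.0867 (quartiles 0.073 and 0.102), against 1.06 over all genes tested, and it holds both Mog and Slc1a3. These genes and the set were chosen after their values were seen. In the same library Sox10, S100b, Gfap and Fgfr3 stood at 1.28, 1.33, 1.34 and 1.33 times the mean of the other 2. Olig2, Nkx2-2 and Aqp1 stood at 1.27, 1.18 and 1.23 times that mean, and Sox9 lay below it, at 0.476 times. Whether the libraries differ in their share of another cell type was not tested, and in bulk RNA fewer cells of a type and less RNA per cell cannot be told apart.

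**Figure D2:**
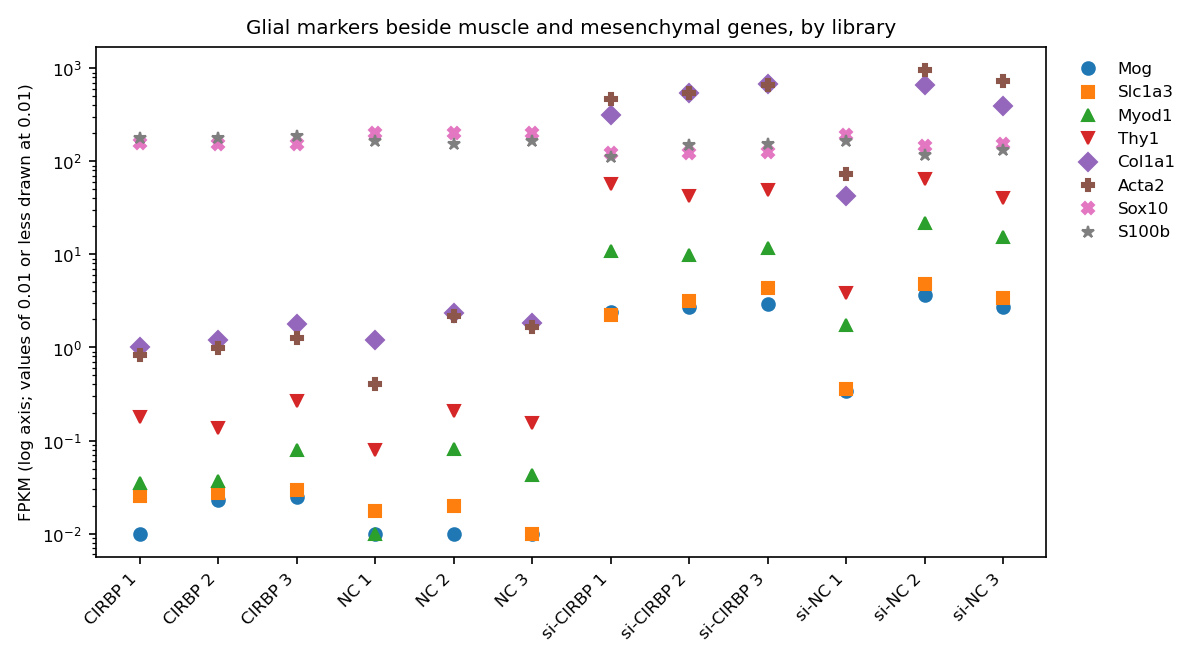
FPKM (log axis; values of 0.01 or less, zeros included, drawn at 0.01) of 4 glial markers and 4 muscle or mesenchymal genes in each of the 12 libraries. Mog and Slc1a3 lie at the bottom in CIRBP and NC with Myod1 and Thy1 also low, all of them are higher in the si libraries and lower in si-NC library 1 than in the other si libraries, while Sox10 and S100b stay between 111 and 203 FPKM.

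Set side by side, the 10 genes differed in CIRBP against NC as follows. In 9 of them the groups did not overlap, 8 higher in CIRBP and Sox10 lower, where 74.7% of all 14257 genes tested did not overlap (29.7% higher and 45% lower). The 8 include Slc1a3, which was at or near 0 in both groups. Because the genes were chosen on these values, nothing is read from these counts here or in the next comparisons. The median log2 fold change of the 10 genes was 0.33, against -0.08 over all genes tested. It includes Mog and Slc1a3, at or near 0 in both groups, which pull it down. With all libraries brought to one median, the median over all genes was 0.03.

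In si-CIRBP against si-NC, Olig2, Fgfr3 and Aqp1 lay wholly above and Sox10 wholly below, where 36.1% of the genes tested did not overlap (11.7% higher and 24.3% lower). The median over the 10 genes was 0.35, against -0.04 over all. Without both first si libraries the log2 fold changes were 1.09 for Fgfr3, 0.66 for Gfap, 0.5 for Nkx2-2, 0.32 for Aqp1, 0.3 for S100b and 0.28 for Olig2. Those of Sox10, Sox9, Mog and Slc1a3 were then -0.27, -0.18, -0.13 and -0.1.

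In si-NC against NC, a comparison in which the treatment and the arm cannot be told apart, 9 of the 10 genes did not overlap: Gfap, Olig2, Nkx2-2, Fgfr3, Aqp1 and Sox10 were lower and Sox9, Slc1a3 and Mog higher, where 53.1% of all genes did not overlap (19.1% higher and 34% lower). S100b overlapped. The log2 fold changes were -2.34 for Fgfr3, -0.94 for Gfap, -0.63 for Nkx2-2, -0.5 for Olig2, -0.44 for Aqp1 and -0.31 for Sox10. The CIRBP effect minus the si-CIRBP effect, in log2, was 0.47 for Olig2, -0.82 for Fgfr3 and 0 (SE 0.118) for Sox10.

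**Figure D3:**
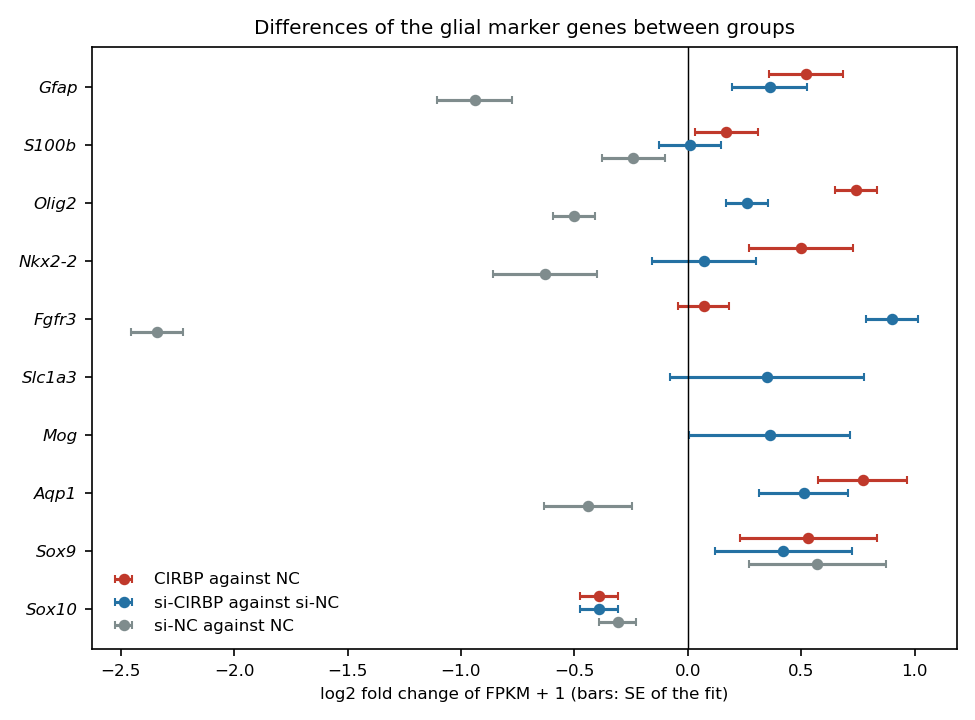
Log2 fold change of FPKM + 1 of the glial marker genes (horizontal axis, bars are the SE of the limma fit) for CIRBP over NC, si-CIRBP over si-NC and si-NC over NC; Mog and Slc1a3 are drawn only where neither group is at or near 0. Sox10 lies left of 0 in all 3, and Fgfr3 lies at 0.07, 0.9 and -2.34.

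Genes of the same lineages that are not among the 10 were taken from 5 lists: astrocyte, oligodendrocyte precursor, myelin and mature oligodendrocyte, Schwann cell and neural crest, and radial glia and progenitor genes. Of 79 genes, 54 had a row and 39 were tested, a gene being called at an adjusted p under 0.05 in the limma fit across all genes. In CIRBP against NC 15 rose and 7 fell (56.4%, against 54% of all genes, 19.7% higher and 34.2% lower), and after scaling to one median 19 rose and 6 fell. In si-CIRBP against si-NC 4 rose and 7 fell (28.2%, against 29.6% of all genes, 9.08% higher and 20.5% lower). The counts were 9 and 5 after scaling to one median, 3 and 4 in the fit of the 6 si libraries alone, and 16 and 6 without both first si libraries. In si-NC against NC 5 rose and 16 fell (53.8%, against 34.4% of all genes, 12.5% higher and 21.9% lower), and 7 and 26 without both first si libraries. For the CIRBP effect minus the si-CIRBP effect 8 were called higher and 1 lower (23.1%, against 17.8% of all genes, 6.87% higher and 10.9% lower), and 15 and 12 without both first si libraries. The shares in the first 2 comparisons are near that of all genes. Median log2 fold changes of the 39 genes were 0.12, 0.07 and -0.17 in the 3 comparisons, against -0.08, -0.04 and -0.07 over all genes tested. Over all genes, CIRBP against NC gave 2814 higher and 4881 lower calls, and 4088 and 3757 with one median for all libraries. The si comparison gave 1294 and 2924, and 2420 and 1903 with that scaling. In si-NC against NC the calls were 1783 and 3126, and 2149 and 2493 with it. The difference of the effects gave 980 and 1555, and 1396 and 1282 with libraries scaled by median ratios. A fit of the 6 si libraries alone called 1155 genes in place of 4218, the larger fit having 1 estimate of the spread for all 12 libraries.

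**Figure D4:**
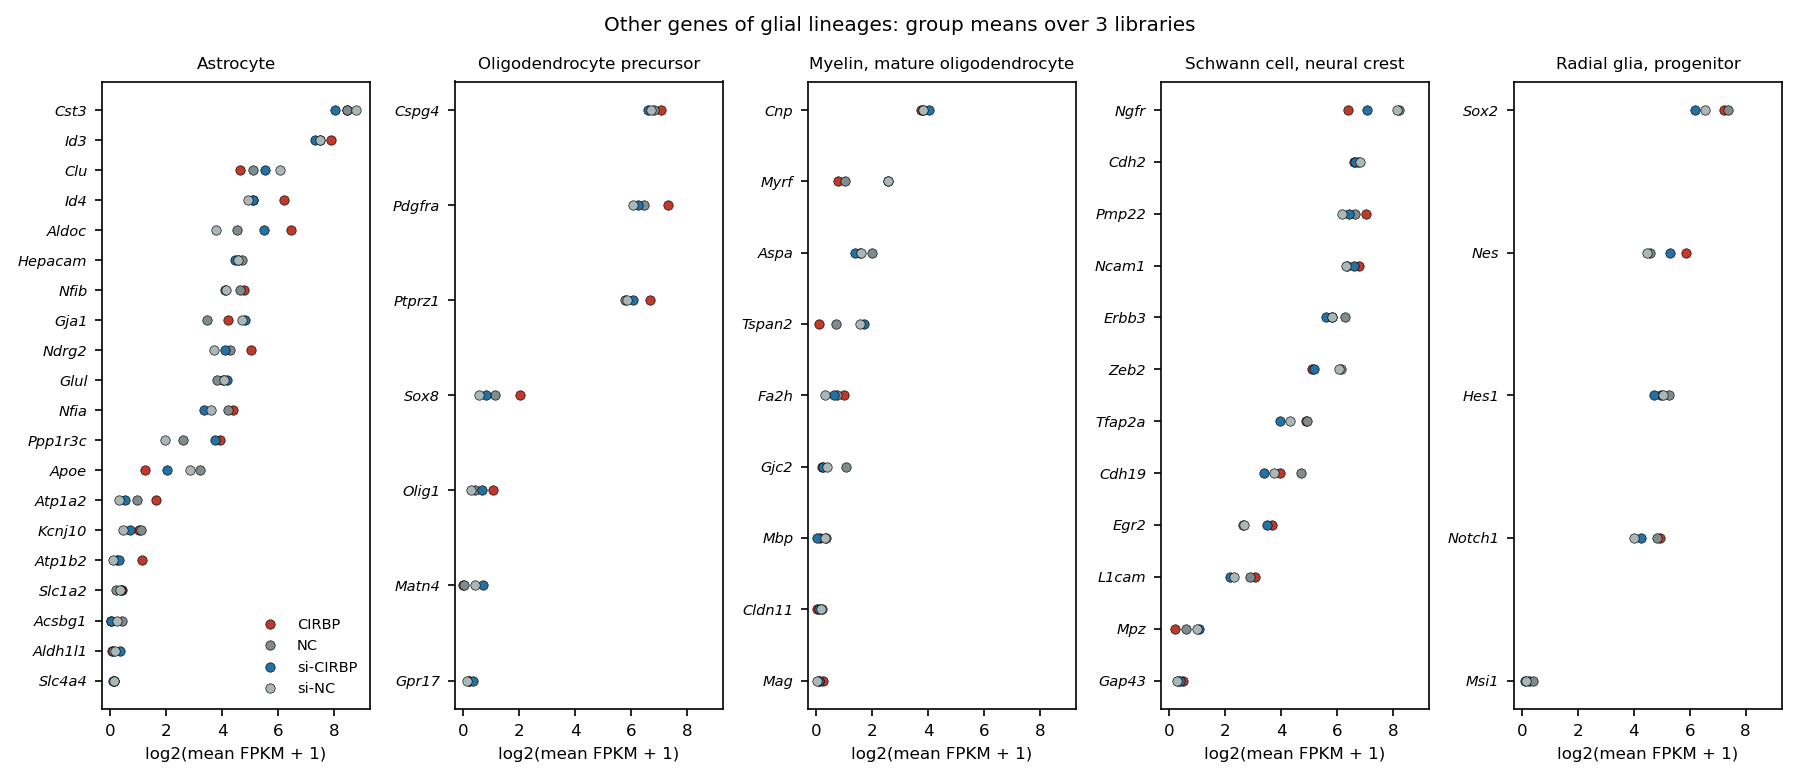
Group means over 3 libraries of the other genes of glial lineages, on a log2(mean FPKM + 1) axis, with 1 panel per list and genes ordered by level; 1 gene of the lists is not drawn. Ngfr, Zeb2 and Apoe are lower in CIRBP than in NC, Aldoc, Nes and Pdgfra are higher, and the mature myelin genes Mbp and Mag lie near 0 in all groups.

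Astrocyte genes were mixed. Of 25 listed, 20 had a row, and Aqp4, Gjb6, Mlc1, Sparcl1 and Slc7a10 were not analysed here. Among the rows, 4 lay under 1 FPKM in all groups, such as the glutamate transporter Slc1a2 (0.0936 to 0.535 FPKM) and the folate enzyme Aldh1l1 (0.012 to 0.287 FPKM). Others were abundant: Cst3, a protease inhibitor, averaged 352 ± 10.1 FPKM in CIRBP and 350 ± 15.5 FPKM in NC (SD, n = 3 each). It fell to 264 ± 27.2 FPKM in si-CIRBP, against 441 ± 27.5 FPKM in si-NC (log2 fold change -0.74, adjusted p = 9.09e-05 with limma), and was higher in si-NC than in NC (0.33, adjusted p = 0.00865 with limma). Aldoc, a glycolytic enzyme of astrocytes, rose in CIRBP, at 87.4 ± 3.76 FPKM, against 22.3 ± 1.59 FPKM in NC (log2 fold change 1.93 with an SE of 0.251 and a limma adjusted p = 8.62e-05). Apoe, a lipid carrier, fell to 1.38 ± 0.216 FPKM in CIRBP, against 8.33 ± 0.474 FPKM in NC (-1.98, SE 0.0801, adjusted p = 5.57e-08 with limma). Aldoc also rose in si-CIRBP (1.68, adjusted p = 0.000791 with limma), and Apoe also fell (-0.81, adjusted p = 7.29e-05 with limma). Clu, a secreted chaperone, fell in both pairs (-0.47 and -0.53) and was higher in si-NC than in NC (0.96).

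Of 12 oligodendrocyte precursor genes 7 had a row. Among these, 3 had a mean of at least 10 FPKM in every group and 2 lay under 1 FPKM in all groups. Pdgfra, the growth factor receptor of these precursors, rose in CIRBP to 159 ± 6.54 FPKM, against 86.8 ± 1 FPKM in NC (log2 fold change 0.86, adjusted p = 0.000474 with limma). Ptprz1, a receptor phosphatase, averaged 101 ± 2.91 FPKM in CIRBP and 54.5 ± 2.61 FPKM in NC (0.88, adjusted p = 5.89e-05 with limma), and Sox8, a relative of Sox10, 3.11 ± 0.155 FPKM in CIRBP and 1.19 ± 0.192 FPKM in NC (0.91, adjusted p = 0.000164 with limma). None of the 4 tested genes of this list was called in si-CIRBP against si-NC with all libraries. Without both first si libraries Ptprz1 (0.43, limma adjusted p 0.00156, over the alternatives 0.00156 to 0.394), Pdgfra (0.49, 0.00218, up to 0.807) and Sox8 (0.45, 0.00973, up to 0.448) were called higher in si-CIRBP. Ptprz1 was also called with either scaling (0.34 and 0.3) or without si-NC library 1 (0.35), and Sox8 without si-CIRBP library 1 (0.37). Of 10 myelin genes with a row 4 lay under 1 FPKM in all groups, such as Mbp (0.023 to 0.318 FPKM) and Mag (0.014 to 0.222 FPKM). Cnp stood above 10 FPKM in every group, at 12.3 FPKM in CIRBP, 13 in NC, 15.3 in si-CIRBP and 13.2 in si-NC. Myrf, a regulator of myelin genes, averaged 4.98 ± 0.375 FPKM in si-CIRBP and 4.99 ± 3.68 FPKM in si-NC, against 0.73 ± 0.0415 FPKM in CIRBP and 1.02 ± 0.019 FPKM in NC, with 1.1 FPKM in si-NC library 1.

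Schwann cell and neural crest genes held both directions. Ngfr, the low-affinity neurotrophin receptor of immature Schwann cells, fell in CIRBP (log2 fold change -1.83, adjusted p = 5.51e-06 with limma) and in si-CIRBP (-1.1, adjusted p = 0.000711 with limma). It averaged 84 ± 5.3 FPKM in CIRBP and 300.1 FPKM in NC, and 134 ± 30.1 FPKM in si-CIRBP and 286 ± 52.2 FPKM in si-NC. Zeb2, a repressor needed by Schwann cells, fell in both pairs as well (-1.04 and -0.94), though its call in si-CIRBP was lost in the fit of the 6 libraries alone. Cdh19, a cadherin of Schwann cell precursors, fell in CIRBP (-0.76, adjusted p = 0.0042 with limma). Ncam1, an adhesion molecule, rose in CIRBP (0.42, adjusted p = 0.000649 with limma). In si-CIRBP its rise (0.28, adjusted p = 0.0158 with limma) was lost in the fit of the 6 libraries alone, without si-NC library 3 and without both first si libraries. Nes, an intermediate filament of neural progenitors, rose in both pairs. Its mean was 57.4 ± 1.95 FPKM in CIRBP and 22.8 ± 1.11 FPKM in NC (1.3, adjusted p = 8.87e-08 with limma), and 38.1 ± 1.09 FPKM in si-CIRBP and 21.2 ± 1.39 FPKM in si-NC (0.82, adjusted p = 8.82e-06 with limma).

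The families of the 10 genes were read from further lists. Glutamate transporters other than Slc1a3 were Slc1a1, Slc1a4 and Slc1a5 among the tested genes, of which Slc1a4 and Slc1a5 carry neutral amino acids. All 3 rose in CIRBP (0.51, 1.76 and 1.24), beside 19.7% of all genes called higher, and none was called in si-CIRBP with all libraries. Slc1a5 (-0.35) was called lower without si-CIRBP library 1 (-0.72, limma adjusted p 8.26e-05) and without both first si libraries (-0.65, 3.93e-05), its adjusted p reaching 0.654 in other alternatives. Slc1a4 (0.03) was called lower without both (-0.44, 0.0014, up to 0.956), and Slc1a1 (-0.12) without si-NC library 2 (-0.28, 0.0241, up to 0.998). Among genes of fibroblast growth factor signalling, 9 of 14 rose and none fell in CIRBP (64.3%, against 54% of all genes, 19.7% higher and 34.2% lower). In si-CIRBP 4 rose and none fell (28.6%, against 29.6%, 9.08% higher and 20.5% lower). The medians were 0.6 and 0.2. Etv5, a transcription factor induced by that signal, rose in both (1.98 and 0.63), as did Dusp6, a phosphatase that limits it (1.42 and 0.49), the second call for Dusp6 being lost in the fit of the 6 libraries alone. Of the S100 genes, 5 of 10 tested rose and 1 fell in CIRBP (60%, against 54% of all genes, 19.7% higher). In si-CIRBP 5 rose (50%, against 29.6%, 9.08% higher). S100a4, a motility protein, stood at 2281 ± 108 FPKM in CIRBP and 1752 ± 43.8 FPKM in NC. No source used here says how reads shared between such close relatives were counted. Hedgehog pathway genes pattern the ventral neural tube, where Olig2 and Nkx2-2 act. In CIRBP 3 of 8 were called higher and none lower (37.5%, against 54% of all genes, 19.7% higher and 34.2% lower). The inhibitor Sufu stood at 0.87 (adjusted p = 2.21e-06 with limma). In si-NC against NC Smo was higher (2.23) and 4 genes were lower (62.5% called, against 34.4%). The lower ones were the targets Gli1 (-1.11) and Ptch1 (-0.62), Sufu (-0.4) and Nkx6-1 (-0.44). Notch1, a receptor of progenitors, was lower there as well (-0.82), as was Synm (-1.2), a filament partner whose profile was the most like that of Fgfr3.

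Sums of smooth and skeletal muscle genes were higher in every si library than in any CIRBP or NC library, while the fibroblast range of si-NC spanned those of CIRBP and NC. Smooth muscle genes, all 9 with a row, summed to 281 to 289 FPKM in CIRBP and 261 to 270 FPKM in NC, and to 1164 to 1345 FPKM in si-CIRBP and 379 to 1924 FPKM in si-NC. Skeletal muscle genes, 14 of 20 with a row, summed to 4.58 to 5.63 FPKM in CIRBP, 8.08 to 10.2 FPKM in NC, 32.8 to 193 FPKM in si-CIRBP and 16.2 to 116 FPKM in si-NC. Myod1, which defines the muscle lineage, averaged 0.0504 ± 0.0255 FPKM in CIRBP, 0.0414 ± 0.041 FPKM in NC, 10.8 ± 0.894 FPKM in si-CIRBP and 12.9 ± 10.2 FPKM in si-NC, with 1.74 FPKM in si-NC library 1. Cardiac muscle genes, 10 of 16 with a row, summed to 50.7 to 52.3 FPKM in CIRBP, 37.8 to 38.9 FPKM in NC, 60.7 to 129 FPKM in si-CIRBP and 42.8 to 119 FPKM in si-NC. Of 10 microglia genes 5 had a row. Neuron genes, 6 of 14 with a row, summed to 65 to 69.2 FPKM in CIRBP, 22.1 to 32.8 FPKM in NC, 17.9 to 38.8 FPKM in si-CIRBP and 14.1 to 17.5 FPKM in si-NC. Of 5 tested, 4 were called higher in CIRBP, beside 19.7% of all genes called higher. In si-CIRBP 3 were higher (9.08% of all genes), and in si-NC against NC 3 were lower (21.9% of all genes). Gad1, an enzyme that makes GABA, rose in CIRBP to 28.1 ± 1.6 FPKM, against 5.32 ± 0.228 FPKM in NC, and Tubb3, a neuronal tubulin, to 19.3 ± 1.04 FPKM, against 3.18 ± 0.151 FPKM in NC. Both were picked after their values were seen. Eno2 of the same list went the other way, at 1.34 FPKM in CIRBP and 4.79 FPKM in NC (log2 fold change -0.76, not called). Fibroblast genes, 11 of 12 with a row, summed to 3038 to 3203 FPKM in CIRBP and 2253 to 2326 FPKM in NC, and to 3489 to 4296 FPKM in si-CIRBP and 2130 to 3557 FPKM in si-NC. Acta2 was higher in si-NC than in NC (log2 fold change 7.35, adjusted p = 0.000181 with limma), as were Myod1 (3.27, adjusted p = 0.00273 with limma) and Lcn2, a secreted protein of reactive astrocytes and many other cells (5.52, adjusted p = 4.71e-05 with limma). Lcn2 comes from a list of reactive astrocyte genes, of which 15 were tested. In si-NC against NC 4 of these were called higher and 3 lower (46.7%, against 34.4% of all genes). The lower ones were Cd109 (-0.98), Lgals3 (-0.64) and Emp1 (-0.45). The part of any of these marker genes in the levels of the 10 genes was not tested.

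Among 11084 genes with a symbol of their own, the gene whose profile across the 12 libraries was most like each of the 10 was found by Pearson's r of log2(FPKM + 1), as a description, because the libraries fall into separate clusters by arm. For Gfap it was Gpsm1 (0.987), for S100b Hr (0.98), for Olig2 Eif2b2 (0.995) and for Nkx2-2 Tril (0.987). For Fgfr3 it was Synm (0.994, but 0.55 within the 6 CIRBP and NC libraries), for Aqp1 Slc16a1 (0.992), for Sox9 Lamp2 (0.964) and for Sox10 Rdh10 (0.986). For Slc1a3 it was Fndc5 (0.998) and for Mog Eya1 (0.999), with r of 0.14 and -0.32 within the CIRBP and NC libraries, where both genes were at or near 0. Between the 10 genes, Slc1a3 and Mog had r of 0.99 over the 12 libraries and 0.98 within the 6 si libraries. Within the 6 CIRBP and NC libraries Aqp1 and Sox10 had r close to -1 and Olig2 and Nkx2-2 close to 1, and within the si libraries -0.41 and -0.19. Other pairs came as close in CIRBP and NC, such as Gfap with Aqp1 (0.99) and with Sox10 (-0.99). There r mainly reflects the difference between the CIRBP and NC groups.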

How the data were processed

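Poly-A RNA of 12 libraries had been sequenced with paired ends, 3 per group, and titles assigned libraries to groups. Per the file headers, the authors deposited gene-level FPKM for every library. Tools in the submitters' processing notes were Cufflinks 2.2.1 and Bowtie2 2.3.3.1. Those notes list mm10 and GRCm38, which are mouse builds, without a role, while the gene identifiers are rat Ensembl ones, so the build and annotation behind the values are unclear. No source used here states strand use. A failed estimate can also give an FPKM of 0, so such values are called listed at 0. FPKM give no absolute depth, so no counting interval was computed.

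Groups were compared with limma 3.58.1 (trended eBayes, two-sided) under R 4.3.3. Values were log2(FPKM + 1), and the 14257 genes that reached 1 FPKM in 3 libraries were kept. The model had 1 coefficient per group over all 12 libraries and 8 residual degrees of freedom. Each gene thus had 1 estimate of spread, so the SE and p-values of CIRBP against NC also hold the spread of the si libraries. Benjamini-Hochberg adjustment ran over all tested genes, with a threshold of 0.05. Fold changes on this scale understate those of low genes. The fit was tested on simulated data. Values, correlations and promoters were processed in Python 3.11.15 with pandas 2.3.3.

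The 10 genes and the lists were chosen with earlier results of these data known. Named genes were the 10 markers, up to 3 of each list by level or by adjusted p, and the 3 genes most like each marker; the text names a part of them, chosen after their values were seen. A single gene of the lists counts in the list totals and is not reported here. The alternatives were another pseudocount, no filter, 2 scalings, fits of the compared groups alone, no trend, a replicate block, each library left out, and both first si libraries left out, the last chosen after seeing the data. Replicate numbers showed no strong pairing of the libraries (correlations of deviations -0.0898 to 0.0995). A weaker pairing could be hidden by other differences between libraries.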

Additional observations from a re-analysis of the deposited data

Results flagged for a closer look

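The genes below had a difference between the CIRBP effect (CIRBP against NC) and the si-CIRBP effect (si-CIRBP against si-NC) that passed the limma test of the difference itself. Values are differences of log2 fold changes, the CIRBP effect minus the si-CIRBP effect, with no cause tested. Among astrocyte genes it was -1.17 for Apoe and 0.75 for Cst3. Among oligodendrocyte genes it was 0.65 for Ptprz1, 0.66 for Pdgfra and 0.66 for Sox8. Progenitor and growth factor genes gave 0.48 for Nes, 1.34 for Etv5 and 0.93 for Dusp6. The transporters gave 0.63 for Slc1a1, 1.73 for Slc1a4 and 1.59 for Slc1a5, and the Hedgehog inhibitor Sufu gave 0.79. The call was lost in 13 of 19 alternatives for Pdgfra, 9 for Sox8 and 8 for Slc1a1. Groups of 3 libraries are too small for the check on single outlying libraries.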

How the results depend on the processing

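A fit of the 6 CIRBP and NC libraries alone called 10077 genes and 32 glial companion genes in CIRBP against NC, in place of 7695 and 22. In the fit of the 6 si libraries alone, si-CIRBP against si-NC gave 1155 called genes and 7 called glial companion genes, in place of 4218 and 11. Leaving out 1 library at a time gave 3247 to 5099 genes and 9 to 17 companions in that comparison, 2950 to 5883 and 14 to 22 in si-NC against NC (4909 and 21), and 1529 to 4503 and 5 to 17 for the difference of the effects (2535 and 9). The highest of the first and the last came without si-CIRBP library 1. The lowest in si-NC against NC and for the difference came without an NC library, and leaving out si-NC library 3 in the one, or CIRBP library 1, 2 or 3 in the other, also moved a count by over 1.5 times. Without both first si libraries, companions called were 22, 33 and 27, and genes called were 8139 in si-NC against NC and 5880 for the difference. With the replicate block, whose numbers showed no strong pairing, 7512, 3926, 4525 and 2232 genes were called. Companions called were 22, 10, 19 and 7. Both series run in the order CIRBP against NC, si-CIRBP against si-NC, si-NC against NC and the difference. In the si comparison Myod1 ranged from -0.7 (without si-NC library 1) to 0.82 with 1 library left out and was -0.71 without both, its difference of effects ranged from -0.81 to 0.71 and was 0.73, and Slc1a4 became -0.44 without both. The causes were not tested. Depth limits what can be said of Mog and Slc1a3 near 0, where 1 fragment is a large share of a value.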
